A study of Mus musculus with 3 samples.

Results

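The cells described here are mouse embryo cells that carried at least 1 UMI (unique molecular identifier, a count of 1 captured mRNA molecule) of Tbx4, at least 1 UMI in the sum of Cdx2, Cdx4, Hoxa10 and Hoxc10, and no UMI of Cdh5. The rule picked 331 of 14777 cells (2.24%), with 8705255 UMIs in all. They are called Tbx4 posterior cells below. Their working name was allantois and posterior lateral plate cells, and these genes do not separate the allantois from the posterior lateral plate. The rule used measured values, so the level of a rule gene, or of any gene against the remaining cells, is given as a description with no test.

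The study profiled single cells from embryos that all carried Mesp1-Cre and the Ai9 tdTomato reporter on a C57BL/6 background, dissected at E8.0, E8.5 or E9.5 and sorted for the reporter. Mesp1-Cre recombines in early mesoderm, so the sort was aimed at cells whose lineage had switched on the driver. Controls were Wls fl/+, with 1 floxed and 1 intact copy of Wls, and mutants were Wls fl/fl, with both copies floxed, so controls carried a floxed copy too. The labels give these genotypes for the pools, while the deposited cell table writes wildtype and knockout, which were read here as Wls fl/+ and Wls fl/fl. Cells of each sample were tagged with a MULTI-seq lipid barcode, pooled and captured together on the 10x Chromium v3 platform. The labels do not say whether a barcode held 1 embryo or several. The barcode sample (named Bar24 and so on) was the replicate throughout, and p-values measure the spread between these samples.

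The allantois is the stalk of extraembryonic mesoderm that grows from the posterior end of the embryo, fuses with the chorion and forms the umbilical vessels. Tbx4 encodes a T-box factor of the allantois and later of the hindlimb bud, where it acts beside Pitx1. Cdx factors and posterior Hox genes mark the posterior end of the body. Wls encodes the membrane protein that carries Wnt ligands to the cell surface for secretion.

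Of the 331 cells, 205 came from E8.0, 32 from E8.5 and 94 from E9.5. Controls held 179 and mutants 152. At least 10 of these cells were found in 10 of the 22 samples, which together held 321 and entered the gene fits. At E8.0 these were the controls Bar24 (43 cells) and Bar29 (25) and the mutants Bar25 (19), Bar27 (71) and Bar28 (46). Bar3, with 32 cells, was the E8.5 control. At E9.5 they were the controls Bar22 (34), Bar23 (30) and Bar4 (10) and the mutant Bar19 (11).

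The median depth was 25904 UMIs a cell (range 4766 to 69148), against 21739 over all cells. All E8.0 samples were in sequencing run 1, Bar3 was in run 2, and Bar4 was the only E9.5 sample of the 10 outside run 1. Doublet calling marked 2 of these cells, and 79 of all cells (0.535%). Across runs, 23 cell barcodes were shared, 1 of them by a Tbx4 posterior cell. UMIs of sex-linked genes placed the 4 mutant samples as male and the controls as female, except Bar29, which was mixed, so sex and genotype cannot be told apart in these cells.

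Tbx4 lies on chromosome 11, positions 85886422 to 85916097, plus strand. Tbx4 UMIs were found in 464 cells, of which 71.3% met the whole rule. Of the others, 100 lacked only a posterior gene, 29 met the rest of the rule but had Cdh5, and 4 failed on both. The median cell had 5 Tbx4 UMIs and 6 UMIs of the posterior genes, 63 cells had exactly 1 Tbx4 UMI, and 10 rested on 1 of each. Among 2449 globin-rich blood cells, which should lack the gene, 0.367% had a Tbx4 UMI at a median depth of 27496 UMIs. The share just inside the rule differed by stage. At E8.0, 14 cells (6.83%) had a single Tbx4 UMI. At E9.5, 39 did (41.5%).

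The posterior genes that admitted the cells shifted with stage. Cdx2, a caudal homeobox factor, was seen in 89.3% of E8.0 cells and 30.9% of E9.5 cells, and its level went from 155 to 27.6 CPM (UMIs scaled to a common total). Hoxc10 went the other way, from 45.9% to 70.2% of cells and from 34.9 to 133 CPM. Hoxa10 was nearly level, at 101 and 97.6 CPM. Both a Cdx and a Hox gene were seen in 159 E8.0 cells (77.6%) and 34 E9.5 cells (36.2%). Tbx4 itself was at 263 CPM at E8.0 and 129 CPM at E9.5.

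The marker lists were read per sample as the summed CPM of their genes. The 15 allantois genes (with Tbx2, Hand1, Phlda2, Pitx1 and others) summed to between 4749 and 6818 CPM at E8.0, and between 4399 and 5438 at E9.5. In the 1096 posterior cells with no Tbx4 UMI, the nearest population, they summed to between 2378 and 3448 CPM at E8.0 and between 1736 and 2575 at E9.5. Phlda2 alone made 4593 of the 6818 CPM in Bar27 and 1063 of the 4399 in Bar19. It lay between 192 and 1265 CPM in the Tbx4-zero cells, so the gap rests in large part on this gene. Other genes of the list were scarce at E8.0. In Bar24, Bar29, Bar25, Bar27 and Bar28, Vcam1 had 5, 3, 8, 172 and 2 UMIs, and Fst had 14, 1, 1, 4 and 3. Spink1 had 1, 1, 0, 4 and 17. The 14 genes of the posterior lateral plate and hindlimb field summed to between 1129 and 1589 CPM at E8.0 and between 1469 and 1826 at E9.5, against between 758 and 981 and between 818 and 1301 in the Tbx4-zero cells. Pitx1 is in both lists. Isl1, which is in this one alone, was at 69.4 ± 19.6 CPM (SD, n = 5 samples) at E8.0, and Islr2 was at 0. Markers of other tissues were present at different levels. The 10 endothelial genes summed to between 470 and 986 CPM at E8.0 and between 55.7 and 249 at E9.5, where Etv2 and Kdr are described below and Emcn lay between 0 and 2.46 CPM. The 9 blood genes summed to between 1008 and 1689 CPM over the 10 samples, against 1534 to 42973 in the Tbx4-zero cells. The 8 germ cell genes summed to between 11.2 and 69.8 CPM, with Pou5f1 and Kit detected and Dppa3 and Prdm14 at 0 in all 10. Sums lay between 48.8 and 517 CPM for heart muscle, between 0 and 73.4 for endoderm and epithelium, between 0 and 63.0 for paraxial mesoderm, between 6.25 and 52.9 for intermediate mesoderm and between 3.48 and 20.8 for the neural list.

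The share of all cells that met the rule varied between samples of the same stage and genotype. At E8.0 the control shares were 11.7% in Bar24, 4.40% in Bar29 and 0.163% in Bar26, where 1 of 614 cells qualified. The E8.0 mutants had 4.85% in Bar25, 10.1% in Bar27 and 8.21% in Bar28, inside the control range. At E8.5 Bar3 had 1.28%, while the mutant Bar1 had 0 of 487 cells, which allows up to 0.616%. E9.5 controls ran from 0 to 1.83% over 5 samples and E9.5 mutants from 0 to 1.27% over 6, with 0 of 686 cells in Bar20, which allows up to 0.437%. These limits are 3 counts of the cells in a sample, below the exact 95% upper bounds of 0.755% and 0.536% that the plot of shares draws for the same samples, and like all intervals here they cover counting error only.

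The share of cells that met the rule was lower at E9.5 than at E8.0, and genotype did not pass a test. E9.5 lay 5.90 percentage points below E8.0 (exact permutation test within genotype, two-sided, p = 0.00106). With every cell thinned to 5000 UMIs the difference was -3.56 points (exact permutation, p = 0.00128), and as a share of posterior cells, an alternative added after the data were seen, it was -19.0 points (exact permutation, p = 0.00748). Within run 1 alone the difference was -5.57 points (exact permutation, p = 0.035). The mutants' share lay 0.207 points above the controls' (exact permutation within stage, p = 0.880). At E8.0 it was 7.73% ± 2.67 in mutants and 5.43% ± 5.84 in controls (SD, n = 3 each, exact permutation p = 0.6, and 0.1 is the smallest p that 3 against 3 can give). At E9.5 it was 0.363% ± 0.502 in 6 mutants and 1.10% ± 0.882 in 5 controls (exact permutation p = 0.106). The direction of the difference by genotype turned without Bar26, to -0.617 points. A share says nothing of whether a tissue grew less or was dissected with less of it. The rule counts detected UMIs, and in the cells that met it Tbx4 went from 263 to 129 CPM and Cdx2 from 155 to 27.6. Thinning evens the depth of cells and not the level of a gene. Fewer such cells and less rule RNA in each cell thus cannot be told apart by the share.

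**Figure D1:**
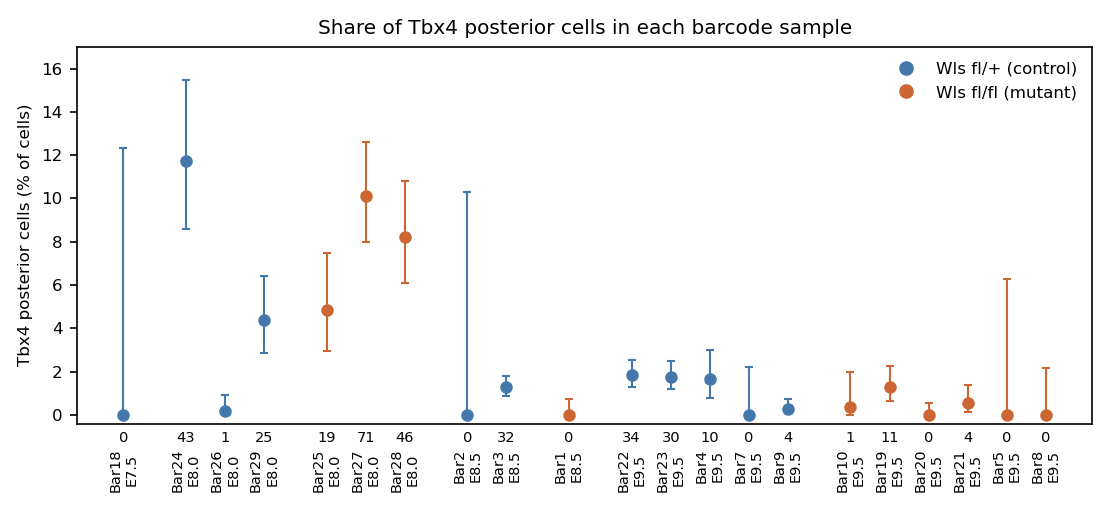
Share of each sample's cells that met the rule (percent, vertical axis) in 21 barcode samples (horizontal axis, with the number of Tbx4 posterior cells), coloured by genotype, with exact 95% binomial intervals that cover counting error only. Shares at E8.0 reach 11.7%, no later sample exceeds 1.83%, and controls and mutants overlap at E8.0 and at E9.5.

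Genes that set these cells apart from the remaining cells are given as a description, since the cells were picked from the same counts. The levels pool the stages, and 205 of the 331 Tbx4 posterior cells were from E8.0, against 2997 of the 14446 remaining cells. The part of stage in these gaps was not tested. Phlda2, an imprinted gene that limits placental growth, stood at 3096 CPM against 133 in the remaining cells and 545 in posterior cells without Tbx4. It lay between 1063 CPM in Bar19 and 4593 CPM in Bar27. Pitx1 stood at 376 CPM against 17.9 and 125, and lay between 306 and 582 CPM in the 10 samples. Cdkn1c, an imprinted inhibitor of the cell cycle, was at 2151 CPM against 432 and 351. Rgs5, known from pericytes, was at 89.8 CPM against 11.9 and 10.2. Levels varied between samples, from 56.7 to 567 CPM for the imprinted gene Sgce. Of the 25 leading genes outside the rule, 16 were above the Tbx4-zero posterior cells in all 10 samples and 9 were not.

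Several leading genes were X-linked. Plac1, known from the placenta and on the X chromosome at positions 53069995 to 53240111, stood at 197 CPM against 5.69 in the remaining cells and 15.4 in Tbx4-zero posterior cells. Spin2c was at 530 CPM against 41.5 and 152. Amot, which encodes angiomotin of the Hippo pathway, was at 506 CPM against 44.2 and 92.1, but it was above the Tbx4-zero cells in only 8 of 10 samples. In the Tbx4 posterior cells Amot also changed with stage, by -2.61 on the log2 scale from E8.0 to E9.5. Of the 25 leading genes 10 were X-linked (40.0%), against 216 of 6385 genes (3.38%) at 20 CPM or more in these cells. The leading genes were chosen by fold, so this share is a description.

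Between E8.0 and E9.5, 4 of 8 tested genes of a smooth muscle and vessel wall list rose in the Tbx4 posterior cells. So did 7 of 16 tested matrix genes, and 4 of 6 tested endothelial genes fell. The summed counts of a sample do not tell fewer cells with an RNA from less of it in each cell. In the fit with genotype and run as terms, 1317 of 10024 genes (13.1%) passed an adjusted p of 0.05 (edgeR's quasi-likelihood test with Benjamini-Hochberg adjustment, as for every adjusted p here). Of these, 706 were higher at E9.5 (7.04%) and 611 were lower (6.1%), and the median log2 fold change of all genes was -0.01. Bar4, alone in its run, carries no weight in this fit. The number depended on single samples, from 452 without Bar19 to 1778 without Bar27.

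Acta2, Myl9 and Tagln, genes of the contractile apparatus, rose, as did Pdgfra, and all 4 also passed when any single sample was left out. Acta2, which encodes smooth muscle actin, read 31.4 and 62.8 CPM in the E8.0 controls Bar24 and Bar29 and 107, 252 and 38.6 in the mutants Bar25, Bar27 and Bar28. At E9.5 it read 1164 CPM in Bar22, 533 in Bar23, 296 in Bar4 and 1666 in the mutant Bar19. The stages did not overlap, which held for 1398 of all genes tested (13.9%). The log2 fold change was 3.92 ± 0.47 (SE), adjusted p = 0.000296. Bar27, the highest E8.0 sample, and Bar4, the lowest E9.5 sample, were close to each other.

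Myl9, a myosin light chain of smooth muscle, read 6.98, 7.38, 22.4, 18.4 and 8.32 CPM in the 5 E8.0 samples and 172, 91.7, 38.3 and 223 at E9.5 (3.98 ± 0.32, adjusted p = 2.76e-05). Tagln, the actin-binding protein transgelin, stood between 3.03 and 10.6 CPM at E8.0 and between 13.9 and 127 at E9.5 (3.98 ± 0.48, adjusted p = 0.000329). Pdgfra, a growth factor receptor of mesenchyme, was 42.1 ± 12.9 CPM (SD, n = 5) at E8.0 and 127 ± 20.6 (n = 4) at E9.5, a log2 fold change of 1.60 ± 0.27 (adjusted p = 0.00264). Of the 10 vessel wall genes listed, 8 were tested, these 4 rose, none fell, and the median was 1.58, where 7.04% of all genes rose. Cnn1 and Kcnj8 had too few counts to be tested. The contractile gene Cnn1 had 7, 3, 3, 4 and 5 UMIs in Bar24, Bar29, Bar25, Bar27 and Bar28 at E8.0. It had 7, 4, 0 and 0 in Bar22, Bar23, Bar4 and Bar19 at E9.5, so it did not show the rise. Rgs5 (-0.21, adjusted p = 0.782), Pdgfrb (0.70, 0.18), Tcf21 (-0.38, 0.539) and Actg2 (1.56, 0.185) did not pass. The name of the list is thus not read as the identity of these cells. Markers of heart muscle, which share contractile genes, summed to between 57.8 and 138 CPM at E8.0 and between 48.8 and 517 at E9.5, and 1 of 6 tested rose (Tnni1, 2.72). Their part in the result was not tested.

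Smooth muscle genes are known to carry the CArG box, the binding sequence of serum response factor. The start regions of the higher genes of the vessel wall list are therefore shown. Each is a RefSeq window of the GRCm38.p6 build, from 250 bases before to 50 bases after the annotated start, printed 5′ to 3′ along the gene's strand, with a match to the box in capitals. Myl9 (chr2:156775214-156775513, plus strand) holds a match 161 bases before its start. Acta2 (chr19:34255324-34255623, minus strand) and Pdgfra (chr5:75152001-75152300, plus strand) hold no exact match to the searched string (CC, 6 bases of A or T, and GG) in this window. No window was found for Tagln. The Acta2 window does hold ccctatatgg and ccttgtttgg, each 1 base off that string, so it is not shown to lack a box.
Myl9: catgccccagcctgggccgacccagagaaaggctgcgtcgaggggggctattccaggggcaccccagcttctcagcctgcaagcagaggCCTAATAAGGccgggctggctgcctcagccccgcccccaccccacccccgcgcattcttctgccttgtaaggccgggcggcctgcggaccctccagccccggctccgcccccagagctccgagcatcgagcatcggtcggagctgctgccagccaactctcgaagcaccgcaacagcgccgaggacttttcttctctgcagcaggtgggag
Acta2: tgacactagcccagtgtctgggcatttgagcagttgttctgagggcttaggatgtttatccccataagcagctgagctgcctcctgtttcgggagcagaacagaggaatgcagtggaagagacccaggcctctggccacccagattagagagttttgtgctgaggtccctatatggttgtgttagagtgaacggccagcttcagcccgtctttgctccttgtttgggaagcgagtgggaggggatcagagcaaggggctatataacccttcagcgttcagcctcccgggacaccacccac
Pdgfra: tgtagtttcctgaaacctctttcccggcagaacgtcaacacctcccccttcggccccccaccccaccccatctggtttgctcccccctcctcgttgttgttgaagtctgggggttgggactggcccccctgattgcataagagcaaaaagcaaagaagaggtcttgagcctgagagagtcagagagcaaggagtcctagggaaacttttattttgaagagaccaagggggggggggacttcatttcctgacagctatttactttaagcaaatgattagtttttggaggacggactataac

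Of the 10 vessel wall genes 7 had a window, and Myl9 held the only exact match among them. The other windows without an exact match were those of Cnn1, Kcnj8, Rgs5 and Tcf21. The box, searched as CC, 6 bases of A or T, and GG, which reads alike on both strands, was found in 1.63% of 32851 RefSeq windows. Among windows of the genes higher at E9.5 it was in 19 of 710 (2.68%), among those of lower genes in 8 of 567 (1.41%), and among those of all tested genes in 136 of 9885 (1.38%). A match is a string of letters and not a measured site.

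Of the matrix genes, 7 of 16 tested rose, where 7.04% of all genes did. Col3a1, a fibrillar collagen chain, read 7.85, 6.15, 19.2, 46.7 and 9.08 CPM at E8.0 and 447, 191, 87.1 and 888 at E9.5 (5.17 ± 0.41, adjusted p = 2.76e-05). The list has 17 matrix and adhesion genes, none fell, and the median was 0.80. The others that rose were Col1a1 (2.05), Col1a2 (2.17), Col5a2 (3.49), Postn (5.67), Sparc (1.69) and Lum (3.68). Without Bar19 4 of the 7 passed, and Col1a1, Sparc and Lum did not. Postn, the matrix protein periostin, was at 0 CPM in 3 of 5 E8.0 samples and at 19.5 in Bar27, and read 211, 94.6, 13.9 and 319 at E9.5, so Bar27 and Bar4 overlapped. The early matrix genes Fn1 (616 ± 99.5 to 529 ± 223 CPM) and Vcan (263 ± 124 to 276 ± 74.0) did not pass. The largest log2 fold change among named genes was that of Dcn, the proteoglycan decorin (6.22 ± 0.71), which was at no more than 0.756 CPM at E8.0 and read 35.3, 15.8, 0 and 39.4 at E9.5.

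Other genes named by size were Dkk2 (4.70), a secreted Wnt modulator, Parm1 (4.60), Mab21l2 (4.59), Prss35 (4.59), G0s2 (4.53), Kcnk2 (4.49), a potassium channel, and Tinagl1 (4.42), a basement membrane protein. Parm1 separated the stages clearly, with 2.62 to 11.1 CPM at E8.0 and 31.4 to 140 at E9.5. Dkk2 did not, since Bar4 had 0 CPM and Bar23 had 5.73, while Bar25 at E8.0 had 8.02.

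Among regulators of the lateral plate and limb field some genes rose and others fell. Gata6 rose (1.82 ± 0.22, adjusted p = 0.000361), from 107 ± 44.3 CPM to 278 ± 87.3. Hand2 (1.07), Prrx1 (1.22), Msx1 (0.72), Pitx1 (0.57) and Irx3 (1.70) rose too. Pitx1, the hindlimb regulator, stood between 306 and 346 CPM in every E8.0 sample and between 473 and 582 at E9.5. Sall4, a zinc finger factor of early posterior cells, fell by 1.68, from 264 ± 72.5 to 98.8 ± 49.5 CPM, and Hoxb6 fell by 1.16. In the lateral plate and hindlimb list 12 of 14 genes were tested, 4 rose and 2 fell. In the trunk lateral plate list 11 of 12 were tested, 2 rose and 1 fell. Over all genes 7.04% rose and 6.1% fell.

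Of 18 posterior Hox genes listed, 14 were tested and only Hoxa9 passed, at -0.72 (124 ± 17.8 to 85.4 ± 16.2 CPM), where 13.1% of all genes passed. The median was -0.19, and 4 of the 14 had an unadjusted p below 0.05. Beside Hoxa9 these were Hoxa7 (-1.25 ± 0.41, adjusted p = 0.0619), Hoxd9 (-0.70 ± 0.31, 0.15) and Hoxd13 (1.5 ± 0.55, 0.0913). Hoxc9 (0.26 ± 0.21, adjusted p = 0.468), Hoxb9 (-0.15 ± 0.32, 0.81) and Hoxc8 (-0.55 ± 0.33, 0.301) did not pass either. A gene that did not pass is not shown to be unchanged, since the fit recovered 37% of simulated log2 changes of 1. Hoxa10 and Hoxc10 belonged to the rule, so cells without them or a Cdx gene could not be in the set. Of 10 tailbud genes 6 were tested and Nkx1-2 fell by 2.45. Evx1 (-0.81, adjusted p = 0.231) and T (brachyury), with 7.35 ± 8.00 CPM at E8.0 and 0 in all 4 E9.5 samples, did not pass.

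Wnt ligands moved in both directions. Wnt2 read 16.6, 25.8, 32.1, 144 and 45.4 CPM at E8.0 and 278, 160, 188 and 293 at E9.5 (2.66 ± 0.48, adjusted p = 0.00361). Wnt4 stood between 6.11 and 23.4 CPM at E8.0 and between 43.0 and 103 at E9.5 (2.80 ± 0.44). Wnt5a fell by 1.01 ± 0.17, from 173 ± 50.0 CPM to 96.1 ± 21.3. The receptors Fzd1 (1.93) and Fzd2 (1.72) rose. Of 17 genes for Wnt ligands, their secretion, receptors and modulators 12 were tested, these 4 rose and Wnt5a fell. Among all genes 7.04% rose and 6.1% fell. Among 9 tested Wnt target genes of 13, only Ccnd1 passed, at -1.34. Lef1 (-0.61, adjusted p = 0.329) and Nkd1 (0.71, 0.242) did not. Of 12 tested BMP genes 2 passed, where Bmp7 fell by 2.16 and Msx1 rose, while Bmp4 was at 146 ± 13.4 and 155 ± 74.7 CPM. For the Wnt targets and the BMP list these counts are near the 13.1% of all genes that passed, and nothing is read from them about either list.

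Imprinted growth genes split. Peg3 rose from 928 ± 91.6 CPM to 1947 ± 542 (1.30 ± 0.09, adjusted p = 2.28e-05), with no overlap between stages. Plagl1, a zinc finger regulator of imprinted genes, stood between 7.85 and 77.9 CPM at E8.0, highest in Bar27, and read 266, 130, 62.7 and 603 at E9.5 (3.84 ± 0.38). Dlk1 (1.53), Meg3 (0.94) and H19 (0.55) rose. Phlda2, which had the largest fold over the remaining cells among the leading genes outside the rule, fell by 1.30 ± 0.23 (adjusted p = 0.00347). All 12 were tested, 5 rose and 1 fell, where 7.04% of all genes rose and 6.1% fell. Peg10 (-0.24) and Cdkn1c (-0.81, adjusted p = 0.299) did not pass.

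Of 20 tested genes of the low oxygen list 8 rose at E9.5, 1 fell and 11 did not pass, with a median of 0.86. Among all genes 7.04% rose and 6.1% fell. Ndrg1 stood between 4.81 and 7.79 CPM at E8.0 and between 17.4 and 105 at E9.5 (3.25 ± 0.36). Ndufa4l2 (2.89), P4ha2 (1.57), Ddit4 (1.57), Pgk1 (0.86), Slc2a1 (0.86), P4ha1 (0.81) and Ldha (0.47) rose, whereas Vegfa fell by 0.78. The mutant Bar19 was the highest E9.5 sample for 7 of these 8, all but Ldha. P4ha1 read 284 CPM there, against 126, 103 and 76.6 in the E9.5 controls and 78.6 to 120 at E8.0. Without Bar19, Ndrg1 was the only one of these 9 genes that still passed (2.41, adjusted p = 0.0182), and P4ha1 was at 0.32 (0.459), Slc2a1 at 0.35 (0.506) and Ddit4 at 0.58 (0.561). Bar19 is described with genotype below, with the mitochondrial RNA that was low in it.

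Etv2, Tal1, Kdr and Egfl7 of the endothelial list fell. Etv2, which encodes the ETS factor that starts endothelial and blood development (chromosome 7, positions 30633616 to 30635852), read 263, 175, 402, 193 and 424 CPM at E8.0 and 1.26, 8.60, 0 and 0 at E9.5. The log2 fold change was -5.83 ± 0.54 (adjusted p = 7e-05). Etv2 UMIs were in 50.7% of E8.0 cells at a median depth of 27488 UMIs, against 11.7% of E8.0 blood cells at 32341. At E9.5 the shares were 4.26% and 4.74%, so the later share was no higher than in blood cells.

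The receptor Kdr read 177, 160, 300, 110 and 256 CPM at E8.0 and 42.9, 60.2, 6.97 and 91.8 at E9.5, and fell by 1.56 ± 0.32 (adjusted p = 0.00885). Tal1 (-3.89), Hhex (-3.87) and Eng (-2.96), also known from blood vessel and blood progenitors, fell, as did Egfl7 (-0.81). Tek, the angiopoietin receptor, rose by 2.57 ± 0.61, from 4.47 ± 3.28 to 17.2 ± 18.8 CPM, with Bar4 at 0. Of 10 endothelial genes 6 were tested, 1 rose and 4 fell, where 7.04% of all genes rose and 6.1% fell. Without Bar19 Tal1, Egfl7 and Tek no longer passed, and without Bar22 Kdr, Tal1 and Tek did not. Pecam1 did not pass (0.12), and its UMIs were in 67.8% of E8.0 Tbx4 posterior cells and 77.6% of E8.0 blood cells. The rule set Cdh5 to 0 at both stages.

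The other genes lower by size were Ngfr (-3.83), Fgf3 (-3.56), Iqgap3 (-2.72), Foxr1 (-2.69) and Kifc2 (-2.65). Ngfr stood at 43.8 ± 14.2 CPM (SD, n = 5) at E8.0 and at no more than 4.37 at E9.5. Tbx2, the neighbour of Tbx4 on chromosome 11 and a gene of the allantois, read 75.0, 20.9, 20.8, 65.7 and 31.8 CPM at E8.0 and 8.83, 8.60, 6.97 and 4.37 at E9.5 (-2.59 ± 0.63, adjusted p = 0.0197). Spin2c fell by 0.81. Of the 15 allantois genes, all tested, 2 rose and 3 fell, where 7.04% of all genes rose and 6.1% fell. Hand1 (0.44, adjusted p = 0.105), Ifitm1 (-0.15, 0.802) and Bmp4 (0.34, 0.195) did not pass. The epithelial genes Epcam (-3.33) and Sox17 (-2.86) and the germ cell genes Pou5f1 (-2.95) and Kit (-1.27) fell, the first from 15.6 ± 9.21 to 0.989 ± 1.23 CPM. The globin Hbb-y was at 584 ± 46.3 and 567 ± 51.6 CPM. Of 16 cell cycle genes 2 fell, Ccne2 (-0.96) and Mcm5 (-0.61), a share near the 13.1% of all genes that passed, and Top2a (-0.07) and Cdk1 (-0.16) did not pass. Without Bar19, with 452 genes called in all, these falls of Tbx2, Epcam, Sox17, Pou5f1, Kit, Ccne2 and Mcm5 did not pass, nor did the changes of Phlda2, Pitx1, Irx3, Hoxa9, Nkx1-2, Fzd1, Ccnd1, Bmp7, Msx1, Hhex and Eng. Tbx2 also did not pass without Bar22, Bar23 or Bar24.

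**Figure D2:**
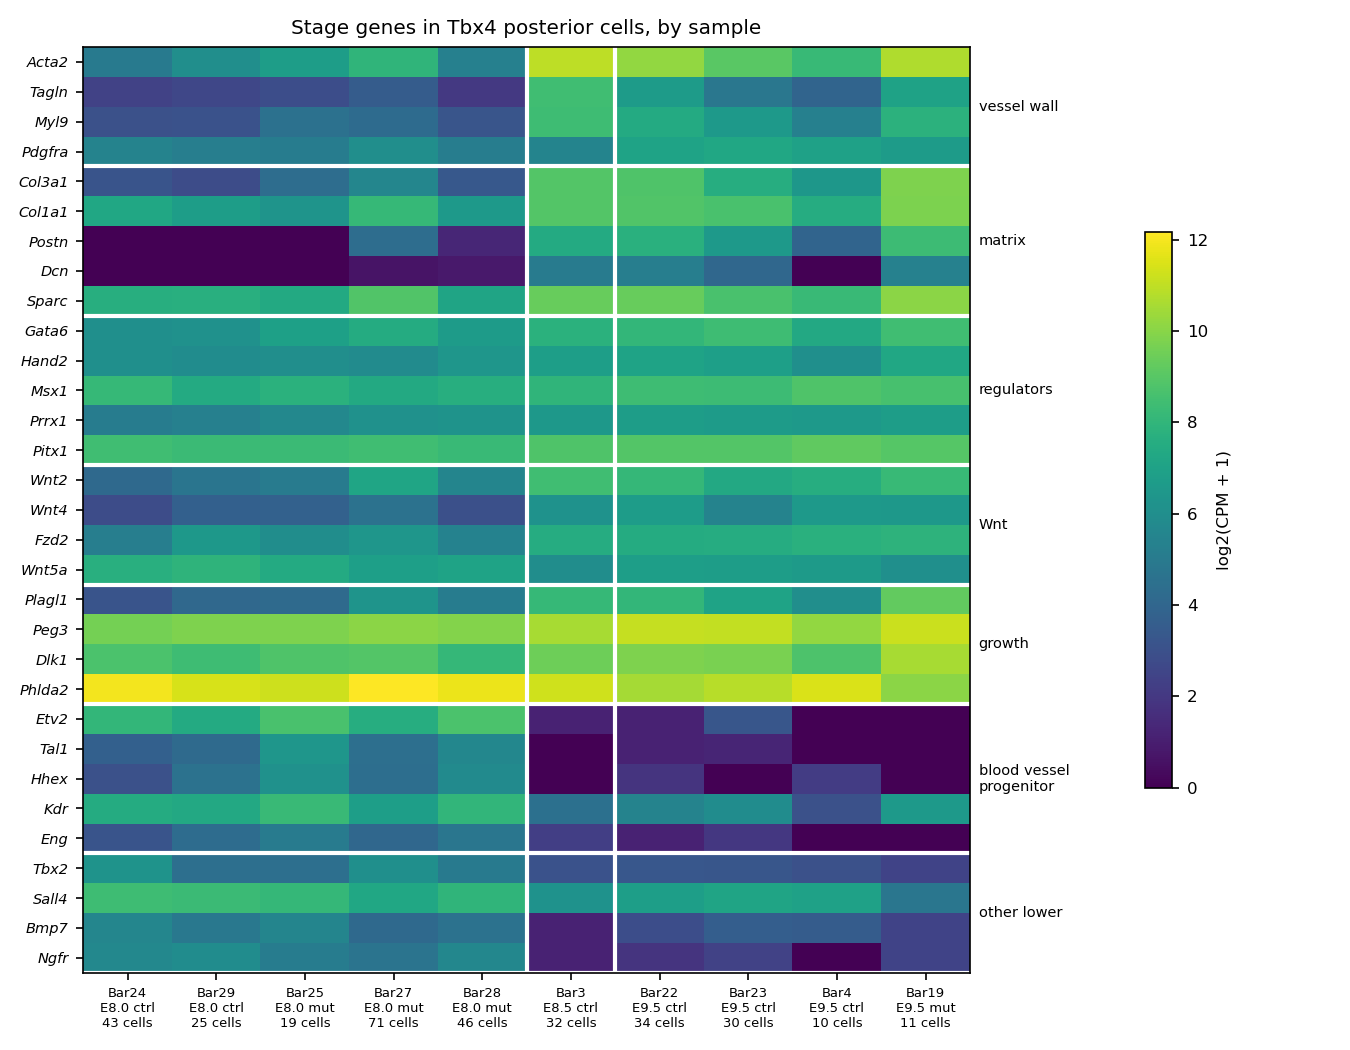
Level of genes from the stage comparison (rows), as log2 of CPM plus 1 (colour), in the 10 samples with at least 10 Tbx4 posterior cells (columns, with stage, genotype and cell number). Acta2, Tagln, Myl9 and Col3a1 are brighter at E8.5 and E9.5 than at E8.0, Pdgfra is brighter at E9.5 alone (43.7 CPM in the E8.5 sample), Etv2 and Tal1 are bright in the 5 E8.0 samples, and Bar27 and Bar4, of which the latter had no weight in choosing the genes, show intermediate levels in several rows.

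**Figure D3:**
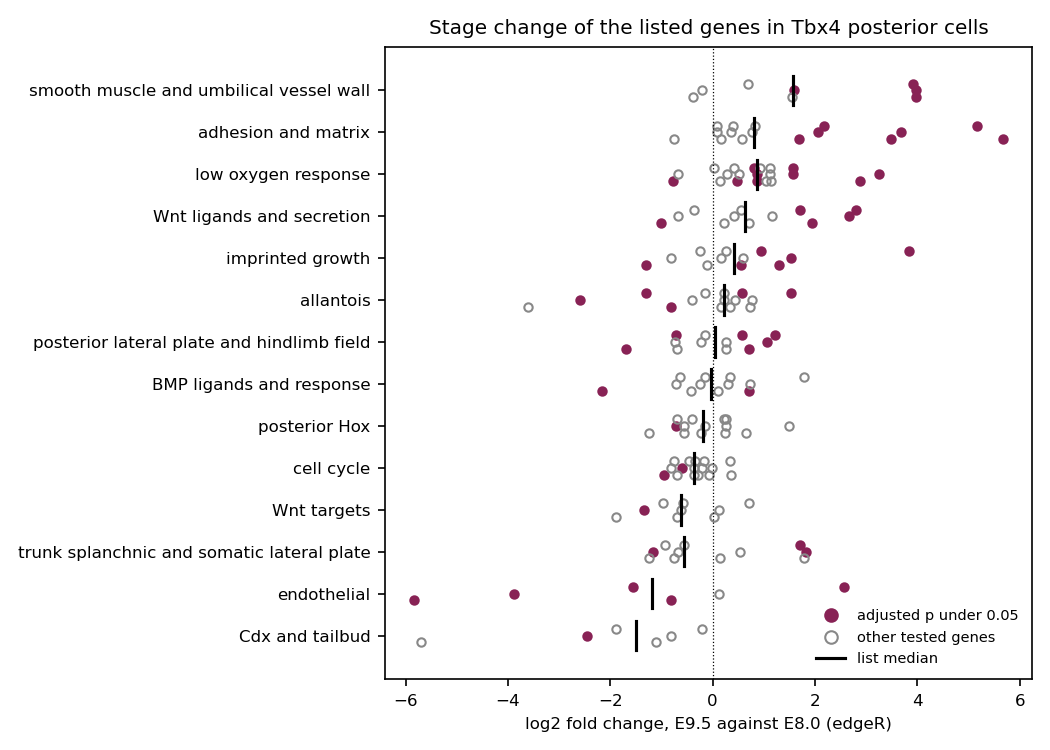
Log2 fold change of E9.5 against E8.0 (horizontal axis) for each tested gene of 14 lists (rows), with filled points for an adjusted p under 0.05 and a bar at the list's median. All passing points of the vessel wall and matrix lists lie above 0, and 4 of the 5 passing endothelial genes lie below 0.

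The E8.5 control Bar3 was not in this fit. Of the 706 genes higher at E9.5, 674 (95.5%) were above the E8.0 mean in Bar3 and 604 (85.6%) were nearer to the E9.5 mean, against 46.5% and 63.4% of all tested genes. Of the 611 lower genes, 579 (94.8%) were below the E8.0 mean, against 53.5% of all tested genes, and 483 (79.1%) were nearer to E9.5. Bar3 had the highest Acta2 of all samples, 1968 CPM, and Tagln at 341, and its Etv2 was 1.25 CPM. It was 1 sample in run 2, so its stage and its run cannot be told apart. Within E8.0, Bar27 was the sample nearest to E9.5 for 426 of the higher genes (60.3%) and 420 of the lower ones (68.7%). Within E9.5, Bar4 was nearest to E8.0 for 411 (58.2%) and 284 (46.5%), but Bar4 had no weight in the fit that chose these genes, so its place is partly set by that choice and nothing is read from it.

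To show which changes differed from those of the nearest population, the stage change was compared with that of Tbx4-zero posterior cells of the same samples. This comparison was added after the data were seen. The difference passed for 487 of 11075 genes (4.4%), with 260 on the higher side (2.35%) and 227 on the lower (2.05%). Without Bar24 the number was 171, and without Bar27 it was 823.

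Acta2, Myl9, Tagln and Pdgfra rose more in the Tbx4 posterior cells than in their neighbours. In the Tbx4-zero cells Acta2 stood between 87.5 and 336 CPM at E8.0 and between 225 and 826 at E9.5, and the difference of the 2 changes was 2.39 ± 0.42 on the log2 scale (adjusted p = 0.00277). It was 2.18 ± 0.40 for Myl9, 1.49 ± 0.38 for Tagln and 1.35 ± 0.26 for Pdgfra. Col3a1 differed by 2.24 ± 0.34. Wnt2 stayed between 26.8 and 70.1 CPM in the Tbx4-zero cells at both stages, and differed by 2.24 ± 0.44 (adjusted p = 0.00628). Fzd2 (1.19), Msx1 (1.26), Hand2 (1.21), Foxf1 (1.14) and Bmp4 (0.77) differed in the same direction. Foxf1, a factor of splanchnic mesoderm, did not pass in the Tbx4 posterior cells alone (0.15, adjusted p = 0.654), and in the Tbx4-zero cells it went from between 109 and 191 CPM to between 64.7 and 138.

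Several posterior Hox genes showed the reverse. Hoxa9 stood between 100.2 and 147 CPM in the E8.0 Tbx4 posterior cells and between 8.12 and 41.5 CPM in the E8.0 Tbx4-zero cells, and at E9.5 between 73.2 and 108 and between 52.1 and 62.4. The difference of the changes was -2.51 ± 0.36 (adjusted p = 0.000481). Hoxa11 (chromosome 6, positions 52242106 to 52245810) read 17.6 to 31.4 CPM in the former at E8.0 and at most 1.32 in the latter, against 13.9 to 22.7 and 2.64 to 6.00 at E9.5 (-2.76 ± 0.70). Hoxd11 (-3.42), Hoxd10 (-2.49), Hoxa7 (-1.86) and Hoxc9 (-1.56) also passed. Of 14 tested genes of the list 6 passed, all on the lower side, where 2.05% of all genes passed. The gap was widest at E8.0, where the Tbx4-zero cells held little of most of these RNAs. Both populations had to carry Cdx2, Cdx4, Hoxa10 or Hoxc10, and the genes that admitted a cell could differ by stage. In the Tbx4-zero cells of the 10 samples Hoxa10 lay between 3.52 and 50.2 CPM and Hoxc10 between 1.56 and 108.5. The levels of other Hox genes, such as the neighbours of Hoxa10 and Hoxc10, are thus not independent of the rule. The adjusted p and the count for this list are given as a description and no test.

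Tbx2 fell more in the Tbx4 posterior cells than in their neighbours (-4.04 ± 0.63, adjusted p = 0.00102), since the Tbx4-zero cells held between 1.08 and 5.74 CPM at E8.0 and between 1.65 and 10.8 at E9.5. Cdkn1c differed by -1.24 ± 0.18 and Pitx1 by -0.68 ± 0.18. Pitx1 did not fall in the Tbx4 posterior cells, where it rose by 0.57, but rose more in the Tbx4-zero cells. There it lay between 49.3 and 329 CPM over the 10 samples. Dcn (5.01), Kcnk2 (4.79), Rbp4 (4.07), Hacd4 (3.66) and Rnd2 (3.25) led the higher side by size. On the lower side the globin Hbb-y had the largest value (-4.14 ± 0.32), and Tal1 (-4.03) and Ngfr (-3.70) were also there. The Tbx4-zero cells had 505 to 1756 CPM of Hbb-y at E8.0 and 4531 to 19865 at E9.5, while the Tbx4 posterior cells had 512 to 650 throughout. Rbp4 did not pass in the Tbx4 posterior cells alone (0.69, adjusted p = 0.279). At E8.0 it varied widely between Tbx4-zero samples, from 7.20 to 496 CPM, and read 10.0 to 19.2 in the Tbx4 posterior cells. The part of blood cells among the Tbx4-zero cells in other differences was not tested.

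**Figure D4:**
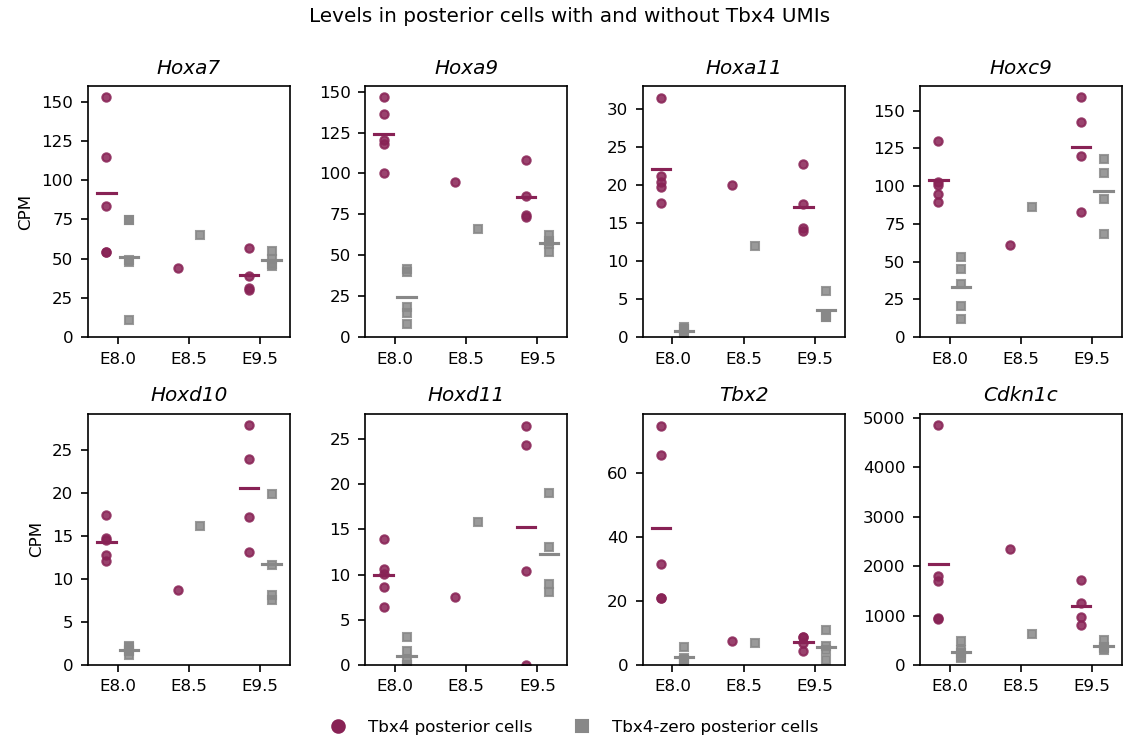
Levels in CPM (vertical axes) of 6 posterior Hox genes, Tbx2 and Cdkn1c by stage (horizontal axes), in Tbx4 posterior cells (circles) and Tbx4-zero posterior cells (squares) of the same samples, 1 point per sample, with a bar at the mean of each E8.0 and E9.5 set. At E8.0 Hoxa9 is at least 100.2 CPM in the circles and at most 41.5 CPM in the squares, and the sets lie closer at E9.5.

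The targeted gene, Wls (chromosome 3, positions 159839672 to 159938664), was checked first in the comparison by genotype. Controls read 60.2 CPM in Bar24, 49.2 in Bar29, 88.7 in Bar3, 115 in Bar22, 83.1 in Bar23 and 52.3 in Bar4. Mutants read 0 in Bar25, 4.45 in Bar27, 11.3 in Bar28 and 0 in Bar19. No mutant sample reached the lowest control. Across all stages Wls differed by -3.37 ± 0.46 (adjusted p = 0.0302). Bar3, the only E8.5 sample, and Bar4 carry no weight in this fit, and its only E9.5 mutant is Bar19. The fit thus compares the genotypes at E8.0 and E9.5 only. Bar21, an E9.5 mutant with 4 Tbx4 posterior cells, read 43.8 CPM, from 4 UMIs in 1 of the cells (exact Poisson interval 11.9 to 112). In Tbx4-zero cells of E8.0 mutants Wls was between 14.3 and 49.3 CPM. The difference of the effect between the populations was -1.92 ± 0.60 and did not pass (adjusted p = 0.669).

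Beyond Wls little passed with genotype over all stages. Of 10071 genes 3 passed (0.0298%). The 2 lower (0.0199%) were Wls and the sex-linked Xist (-3.65), the 1 higher (0.00993%) was the sex-linked Ddx3y (3.60), and 616 had an unadjusted p below 0.05. With the male share of sex-linked reads as a covariate none passed. Wls passed in 13 of 21 settings. At E8.0, with 3 mutant and 2 control samples, 3 of 9152 genes passed (0.0328%), Rps3a1 (-4.12), Rpl34 (-1.20) and Xist (-3.66), and Wls was -3.16 ± 0.55 (adjusted p = 0.359). Rpl34-ps1, by its name a copy of Rpl34, went the other way at E8.0 (0.86) and did not pass. Reads could be split between them, so the value of Rpl34 is uncertain. No gene of any marker or pathway list passed at E8.0. Wnt2 read 16.6 and 25.8 CPM in controls and 32.1, 144 and 45.4 in mutants, and Isl1 87.4 and 91.6 in controls and 46.2 to 65.8 in mutants (-0.68, adjusted p = 1.00). The genotypes did not overlap for these genes, nor for 1769 of all 9152 (19.3%), so nothing is read from it.

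The ribosomal protein gene Rps3a1 had levels that went with the sample in both cell populations. It read 1240 and 927 CPM in the E8.0 controls, 52.3 to 73.7 in the E8.0 mutants, and 64.3, 88.8, 4013 and 1622 in Bar22, Bar23, Bar4 and Bar19. The Tbx4-zero cells of the same samples had 1550, 608, 56.5 to 67.0, 65.7, 56.2, 3996 and 1589. It has near-identical copies, among which the authors' mapping could split reads, so its values are uncertain. It was also the only one of 10024 genes (0.00998%) to pass in the difference of the effect of genotype between E9.5 and E8.0 (8.53 ± 0.31), where 619 had an unadjusted p below 0.05 and DESeq2 called 3.

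At E9.5 a single mutant sample, Bar19 with 11 cells, was set against 3 controls, and Bar4 carries no weight, so the fit had 1 residual degree of freedom. It called 126 of 7665 genes (1.64%), 88 higher (1.15%) and 38 lower (0.496%). DESeq2 called 4, and 34 passed when samples of at least 4 cells were admitted, of which 33 were shared. The lone mutant sample is assumed to vary like the controls, so these calls hold no measure of the spread between mutants, and no adjusted p of single genes is given here. The values that follow are those of 1 sample.

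Genes of the low oxygen response read higher in Bar19 than in the controls. Ndufa4l2, a mitochondrial protein induced in hypoxia, read 297 CPM there and 36.6, 80.2 and 129 in Bar22, Bar23 and Bar4 (2.37 on the log2 scale). Of 18 tested genes of the list 17 were above all 3 controls in Bar19, against 2401 of 7665 of all genes (31.3%), and the median was 1.69 against -0.03. The list was chosen with earlier results of these data known, so this count is a description and no test. Ddit4 (2.76), an inhibitor of growth signalling, Ier3 (3.47), Ndrg1 (1.94), the glycolytic regulators Pdk1 (1.62) and Hk2 (1.74), the glucose transporter Slc2a1 (1.14) and the oxygen sensor Egln1 (1.76) had positive values. The whole list summed to 9152 CPM in Bar19 and 4729, 5402 and 7456 CPM in the controls. Samples with 4 cells each read 8696 (mutant Bar21) and 3710 (control Bar9).

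RNA of the mitochondrial genome also differed between the samples. Its 37 genes held 1.73% of UMIs in Bar19 and 1.05% in Bar4, the control with the highest sum, against 2.88% in Bar22 and 2.60% in Bar23. In the samples of 4 cells they held 1.34% in Bar21 and 1.95% in Bar9. The transcript mt-Nd1, of a respiratory chain subunit, read 1640 CPM in Bar19, 1683 in Bar4, 5221 in Bar22 and 3971 in Bar23 (-1.47). At E8.0 the share lay between 2.37% and 2.77%. The order was not that of the list in every sample, since Bar4 had the lowest share, Bar9 had less than Bar22 and Bar23 with a lower list sum, and Bar3 at E8.5 had 1.58% with a sum of 4935 CPM. The part of mitochondrial RNA, a sign of RNA quality as well as of cell state, in the result was not tested.

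In the Tbx4-zero posterior cells of E9.5 the sums were 7056, 6686 and 8035 CPM in 3 mutant samples and 4322, 4343, 6273 and 4351 in 4 controls, of which Bar4, in run 2, was the highest. Mitochondrial RNA held 1.96%, 2.40% and 1.99% of UMIs in these mutants (Bar19, Bar20 and Bar21) and 2.83%, 2.72%, 1.33% and 1.90% in the controls (Bar22, Bar23, Bar4 and Bar9). One of these mutants, Bar20, read as female. At E8.0 the sums of Tbx4 posterior cells overlapped, at 3820, 4435 and 4532 CPM in mutants and 3943 and 4465 in controls, and none of 17 tested genes passed. No gene of the list passed by edgeR in the difference between stages of the effect of genotype. On the E9.5 side of that difference the only mutant was Bar19, and Bar4 carries no weight. It thus holds no measure of the spread between E9.5 mutants.

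Isl1, a factor of the hindlimb field and heart progenitors, read 4.37 CPM in Bar19 and 58.0, 75.9 and 129 in the E9.5 controls (-3.85). Crabp2, which binds retinoic acid, read 4.37 CPM against 60.5, 136 and 192 (-4.39). Each of these Bar19 values is 1 UMI. In the samples of 4 cells, the mutant Bar21 had 3 UMIs of Isl1 and 2 of Crabp2 among 91307. The control Bar9 had 26 and 17 among 65503. Wls had no UMI in Bar19, at least 7.03-fold lower than the pooled controls, with the floor set at 3 counts in that sample. The log2 difference was 0.99 for Acta2, 0.76 for Myl9 and 0.97 for Tagln. It was 3.62 for Upk3b, a gene of mesothelium, 2.99 for Pfkp, a glycolytic enzyme, and 2.61 for Vldlr. Pcid2 (-7.27), Hsf2 (-7.20), Herc4 (-7.13) and Ankrd1 (-6.98) were at 0 in Bar19, so the size of their change is not bounded by the fit. Ankrd1 had 45 UMIs in Bar22, 3 in Bar23 and 0 in Bar4, so its value rests mostly on Bar22 and Bar19 was not below all controls.

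**Figure D5:**
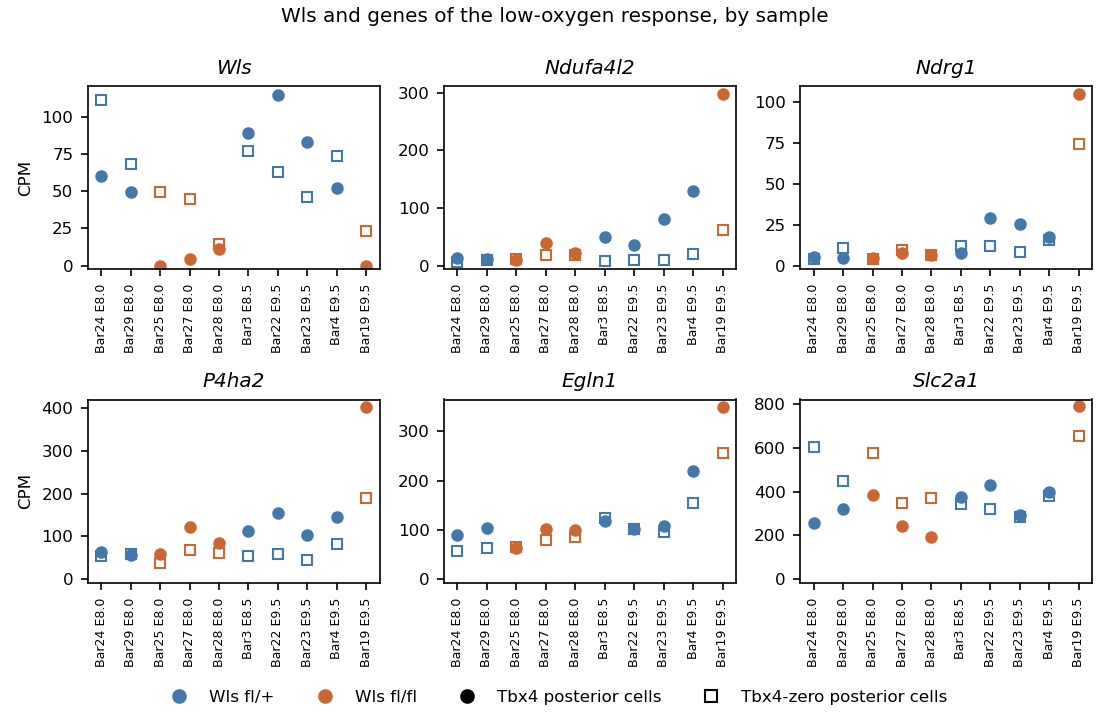
Levels in CPM (vertical axes) of Wls and 5 genes of the low oxygen list in the 10 samples (horizontal axes), in Tbx4 posterior cells (circles) and Tbx4-zero posterior cells (squares), coloured by genotype. Wls of the Tbx4 posterior cells is at most 11.3 CPM in the 4 mutant samples and at least 49.2 CPM in the controls, and the mutant Bar19 has the highest circle in each of the other panels, with Ndufa4l2 at 297 CPM.

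The effect of genotype differed between Tbx4 posterior and Tbx4-zero posterior cells for 3 of 12211 genes (0.0246%), with 660 at an unadjusted p below 0.05 and 0 by DESeq2. Acta1 (-4.29) and Kcnk4 (-5.15) were on the lower side (0.0164%) and Rhox5 (4.99) on the higher (0.00819%). Acta1, skeletal muscle actin, was low in the Tbx4 posterior cells (0 to 27.2 CPM) and reached 123 CPM in the Tbx4-zero cells of Bar19. Rhox5, an X-linked homeobox gene, read 162 CPM in the Tbx4 posterior cells of Bar27 and between 0 and 40.1 in the other E8.0 samples.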

How the data were processed

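The deposited matrix holds raw UMI counts of 51923 genes in 14777 cells, with no normalization, per the file headers and the labels. Reads were mapped with kallisto and bustools 0.46.1 and the build was GRCm38, per the submitters' processing notes. The authors' filters on cells, the use of strand and the annotation are not given in the sources used here. Stage, genotype, run and barcode of each cell came from the authors' deposited cell table, which writes genotype as wildtype or knockout, and runs were matched to the labels by run number, since the dates given for 2 of them differ by 1 day. Gene positions are GENCODE M21.

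The cells and gene lists were chosen with earlier results of these data known. UMI counts were summed over the Tbx4 posterior cells of each sample with at least 10 of them. Genes were tested with edgeR 4.0.16 (filterByExpr, TMM, quasi-likelihood F test, two-sided, Benjamini-Hochberg at 0.05) in R 4.3.3, with limma 3.58.1 loaded. Terms were stage, run and genotype. The comparison with Tbx4-zero posterior cells had a term for each sample. Shares of cells, over samples of at least 20 cells, were compared by exact permutation within stage or genotype (scipy 1.17.1). Doublets were called with Scrublet in scanpy 1.11.5. Named genes were the 10 largest log2 fold changes in each direction that passed and had a mean of at least 20 CPM in a group, leaving out X- and Y-linked and predicted genes, and all passing list genes; 1 that met this rule is not reported here. Leading genes, the 30 with the largest fold over the remaining cells (5 CPM added) among genes seen in at least 25% of the Tbx4 posterior cells, were chosen after their values were seen. On simulated counts with 200 changed genes, 100 by a log2 change of 1 and 100 by 2, the E9.5 against E8.0 fit (10024 genes) recovered 37% and 73% with 7 false calls.

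Alternatives were DESeq2 1.42.0, DESeq2-style (RLE) size factors, no low-count filter, other cell minimums, 2 or more Tbx4 UMIs, the rule on cells thinned to 5000 UMIs, run 1 alone, male share as covariate, and leaving out each sample. Samples of at least 4 cells, cells without a Kdr UMI, cells without doublet calls and shares of posterior cells were alternatives chosen after seeing the data. A control sample labelled E7.5 (28 cells, 0 Tbx4 posterior cells) entered no test.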

Additional observations from a re-analysis of the deposited data

Results flagged for a closer look

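In Bar9, 6.25% of posterior cells were Tbx4 posterior cells, apart from the other 3 of 4 E9.5 controls, a gap that chance gives in about 1 of 20 groups. The effect of genotype differed between E9.5 and E8.0 for Rps3a1 (8.53 on the log2 scale, as all differences here), a gene with near-identical copies. It differed between Tbx4 posterior and Tbx4-zero posterior cells for Kcnk4 (-5.15), Rhox5 (4.99) and Acta1 (-4.29), and for none of these by DESeq2. The stage effect differed between the same populations, in a comparison added after the data were seen. On the higher side were Dcn (5.01), Kcnk2 (4.79), Rbp4 (4.07), Hacd4 (3.66), Rnd2 (3.25), Lmo1 (3.09), Dkk3 (3.07), Cryab (2.88), Adamts2 (2.79) and Lsp1 (2.79). On the lower side were Hbb-y (-4.14), Tbx2 (-4.04), Tal1 (-4.03), Ngfr (-3.70), Hba-a2 (-3.61), Pde6h (-3.59), Hba-a1 (-3.57), Exoc3l (-3.52) and Foxr1 (-3.27).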

How the results depend on the processing

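The stage comparison called 1317 genes, 867 by DESeq2, 544 with at least 20 cells, 647 with 2 or more Tbx4 UMIs, 697 with male share as a covariate and 165 in cells without a Kdr UMI. Leaving out samples gave 452 (Bar19) to 1778 (Bar27), with 714 without Bar24, 807 without Bar29, 640 without Bar22 and 684 without Bar23. All 72 genes named there kept their direction in each alternative that tested them, 1411 pairs of a gene and a setting, of which 1189 passed. The difference in stage effect from Tbx4-zero cells (487 genes) gave 290 by DESeq2, 751 with no low-count filter, 215 with at least 20 cells, 304 with 2 or more Tbx4 UMIs, and 171 to 823 leaving out samples.

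Genotype over all stages (3 genes) gave 139 with no low-count filter, 1 on thinned cells, 0 with male share, and 1 to 4 leaving out samples. At E8.0 (3) it gave 7 by DESeq2, 128 with no filter, 1 on thinned cells, and 1 to 4. At E9.5 (126) it gave 4 by DESeq2, 34 with at least 4 cells and 137 without Bar4. The difference between stages (1) gave 3 by DESeq2, 47 with no filter, 2 with at least 4 cells, and 1 to 3, and Wls there went from -6.26 to 0.19 with at least 4 cells. The difference between populations (3) gave 0 by DESeq2, 55 with no filter, 1 with at least 20 cells, 18 on thinned cells, and 0 to 12. The share of cells by genotype (0.207 points) was -0.140 without blood cells, -2.72 as a share of posterior cells and -0.617 to 0.892 leaving out samples, among them -0.0636 without Bar29 and -0.243 without Bar27. The cause of these changes was not tested.

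At E9.5, refits with at least 20 cells, 2 or more Tbx4 UMIs, thinned cells, male share, or without Bar22, Bar23 or Bar19 gave no value, nor did the first 3 and leaving out Bar19 for the difference between stages, nor thinned cells for the stage comparison and its difference from Tbx4-zero cells. No paired analysis was possible because the samples carry no numbers that join a control to a mutant. Simulation recovered 62% of log2 changes of 2 for the E9.5 genotype fit and 25% for the difference between stages, with 10 to 71 cells a sample.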
